A study of Mus musculus with 22 samples.

Results

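Chemokines are small secreted proteins that guide migrating cells, and they act through G protein-coupled receptors on those cells. Atypical receptors bind the same ligands without G protein signalling, remove them and so shape their gradients. In embryos the best studied pair is CXCL12 with its receptor CXCR4, and the atypical receptor ACKR3 takes up CXCL12. CCL19 and CCL21 share the receptor CCR7 and are taken up by ACKR4.

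The chemokine and chemokine receptor genes were all genes of the count tables whose names begin with Ccl, Cxcl, Cx3cl, Xcl, Ccr, Cxcr, Cx3cr, Xcr or Ackr followed by a digit. They were 39 of the 998 genes measured. There were 24 ligands, of which 12 were CC, 10 CXC and 2 CX3C or XC chemokines, and 15 receptors, of which 6 were CC, 5 CXC, 1 CX3C and 3 atypical receptors. Ccl21a/b/d is a single target name for near-identical genes, whose transcripts cannot be separated.

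Transcripts were imaged in situ with the CosMx spatial molecular imager, which reads barcoded hybridization probes and assigns each transcript to a segmented cell. The sections, 10 µm thick, came from 2 mouse embryos at embryonic day 10 and covered the aorta-gonad-mesonephros (AGM) region, where the first hematopoietic stem cells form, and the tissue around it. The Nr4a1+/+Nr4a2+/+ embryo, called wildtype here, gave 9 sections, and the Nr4a1-/-Nr4a2-/- embryo, called knockout here, gave 13 sections. Both knockout alleles are constitutive and so were carried in every cell type, in mice backcrossed to C57BL/6J. Nr4a1 and Nr4a2 are orphan nuclear receptors, and the study compared embryos with and without them. With 1 embryo per genotype, sections are repeated measurements of 1 animal, so the p-values measure the spread between sections and compare these 2 embryos. No slide held both genotypes, so genotype, embryo and slide cannot be told apart.

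Of 37575 cells, 37570 held at least 10 transcripts and 10 genes and were kept. The total per section ranged from 169027 to 887896 transcripts. The 39 genes took a median of 252 of every 10000 transcripts in knockout sections (highest 312) and of 297 in wildtype sections (lowest 276, highest 357). The targeted genes did not check the labels, since Nr4a1 averaged 2.42 per 10000 in knockout and 2.48 in wildtype sections after scaling, and Nr4a2 4.49 and 4.38. The log2 differences were -0.05 (SE 0.07) and 0.03 (SE 0.09), and Nr4a1 was among the 50 dimmest genes. The probe positions relative to the deletions were not analysed here. The groups therefore rest on the labels alone, and the number of sections per genotype in the published legend differs from that in the labels, a conflict that could not be resolved here. Knockout section 13 stood apart, with a median correlation across genes of 0.839 with the other knockout sections, where those sections had 0.944 to 0.970. Values without it are given for the main results that rest on it, whereas the fits within set 2, described below, include it.

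The first question was which chemokine genes stood above the dimmest genes of the panel. Background was the mean rate of the 50 dimmest genes, 5% of the panel, in each section. It was 2.32 ± 0.136 per 10000 transcripts in knockout sections (SD, n = 13) and 2.80 ± 0.0727 in wildtype sections (SD, n = 9). A gene was counted as above background where its rate was at least 2 times that value in at least 20 of the 22 sections. This held for 13 of the 39 genes (33.3%), against 46.9% of the whole panel. They were 9 of the 24 ligands and 4 of the 15 receptors. Of the 3 atypical receptors, 3 passed, whereas of the 6 CC receptors 0 passed. This split depended on the cut. With the dimmest 10% as background Ackr4 was the only receptor to pass, and at a ratio of 3 no receptor passed. At a ratio of 1.5 CC receptors such as Ccr1 passed too. A rate depends on each gene's probes as well as its RNA, so the order of genes below describes this panel.

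**Figure D1:**
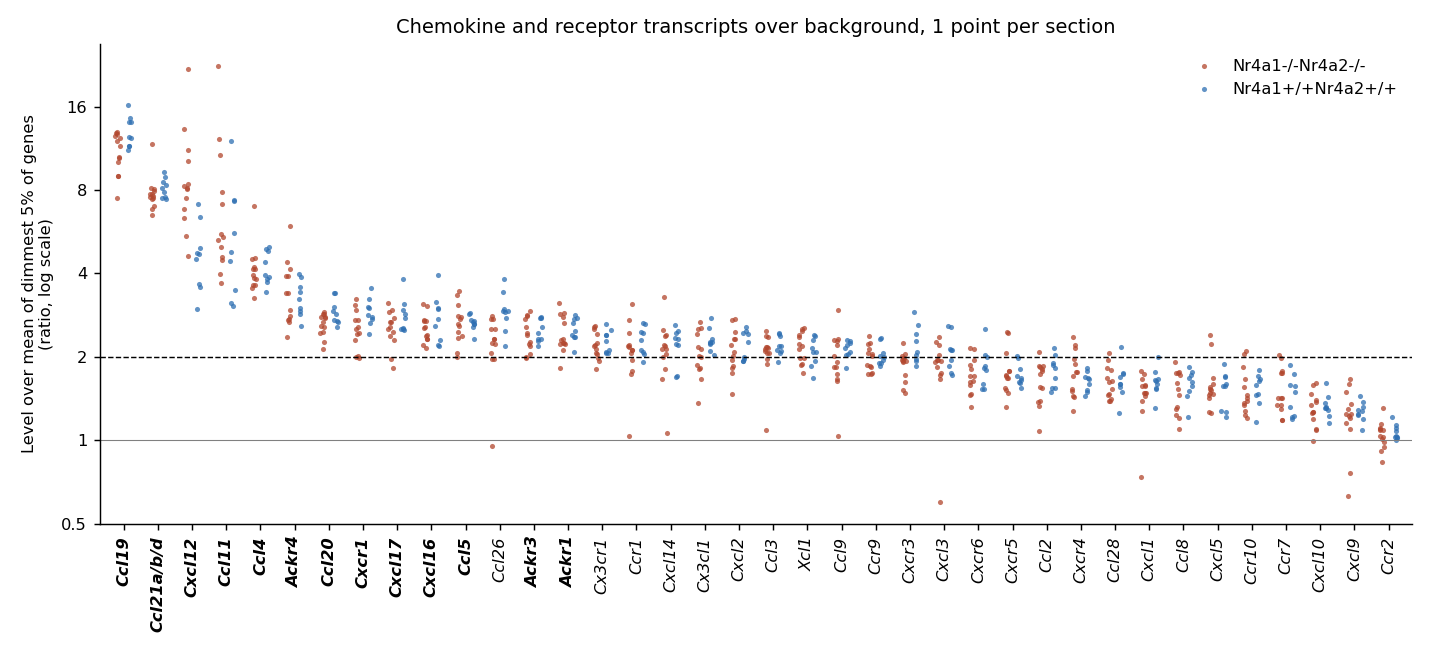
Ratio of the rate of each chemokine and chemokine receptor gene reported here to the background rate of its section, on a log axis, with 1 point for each of the 22 sections, coloured by genotype, genes ordered by their pooled rate and those above background in bold. The dashed line marks a ratio of 2. Ccl19, Ccl21a/b/d, Cxcl12, Ccl11 and Ccl4 lay above a ratio of 2 in all 22 sections, and Ccr2 lay around 1.

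The highest rates were those of the CC ligands Ccl19 and Ccl21a/b/d, and 6 of the 12 CC ligands passed the background rule. Ccl19 was the brightest, with 29.2 of every 10000 transcripts over all sections, rank 42 of the panel. Its ratio to background was 7.47 in the lowest section, 12.2 at the median and 16.2 in the highest. Ccl21a/b/d followed at 19.5 per 10000, with ratios of 6.51, 7.74 and 11.7. Both ligands direct lymphocytes and dendritic cells to lymphoid tissue in the adult. Ccl11, an eosinophil attractant also called eotaxin, was at 15.9 per 10000, and its ratios spread far more widely, from 3.06 over a median of 5.34 to 22.5. Ccl4, a chemokine of activated macrophages, was at 10.3 per 10000 with ratios from 3.26 to 7.01. Ccl20, the ligand of CCR6, and Ccl5, a chemokine best known from T cells, were lower at 6.79 and 6.51 per 10000.

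Among the CXC ligands, Cxcl12 was at 16.3 per 10000, rank 88 of the panel. Its ratio to background was 2.98 in the lowest section, 6.63 at the median and 21.8 in knockout section 13, the highest. Cxcl17 and Cxcl16, the ligand of CXCR6, were at 6.60 and 6.55 per 10000.

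Among the receptors, Ackr4 was the brightest at 8.32 per 10000, with ratios between 2.36 and 5.95. Cxcr1, a receptor for neutrophil-attracting CXC ligands, was at 6.65, Ackr3 at 6.27 and Ackr1, the Duffy antigen receptor of red cells and venules, at 6.09 per 10000. Cxcr1 and Cxcl17 were just inside the rule, each at 2-fold in 20 sections. Just outside it were Ccl26 at 6.49 and Cx3cr1, the fractalkine receptor, at 5.64 per 10000, each at 2-fold in 19 sections, and Ccl3 at 5.40 per 10000, at 2-fold in 18. Ccl26 was at 0.955 of background in knockout section 13, and without that section it passed, for 14 genes at 2-fold in at least 19 of 21 sections. By rate, the 3 brightest of the 26 genes that did not pass were Ccl26, Cx3cr1 and Ccr1, the last at 5.63 per 10000 and at 2-fold in 17 sections. The 3 dimmest were Cxcl10 at 3.28, Cxcl9 at 3.14 and Ccr2 at 2.64 per 10000. Ccr2 is itself 1 of the 50 background genes. The other 20, Ccl3 among them, ranged from 3.71 to 5.58 per 10000 and reached 2-fold in 0 to 18 sections.

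CXCR4 and CCR7, the receptors of CXCL12 and of CCL19 and CCL21, were looked up after their values were seen. Cxcr4 was at 4.22 per 10000, rank 809 of the panel, and its ratio to background ran from 1.27 over 1.68 to 2.37. It reached 2-fold in 3 of the 22 sections. Ccr7 was at 3.71 per 10000 and reached 2-fold in 1 section. Thus Cxcl12, Ccl19 and Ccl21a/b/d were at 2-fold in all 22 sections, and Cxcr4 and Ccr7 in at most 3. The level at which these receptors would be detectable was not measured.

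Several chemokine genes lie side by side in the mouse genome. By the RefSeq annotation of GRCm38.p6, 39 of 39 genes were matched and 20 of them fell into 6 runs of neighbours no more than 1 Mb apart. Neighbours could differ in rate. In the run of Ccl2, Ccl11 and Ccl8, rates ranged from 3.85 to 15.9 per 10000, with Ccl11 the brightest. In the run of Ccl5, Ccl9, Ccl3 and Ccl4 they ranged from 5.16 to 10.3. The neighbours Ccl19 and the Ccl21 genes were both bright, at 29.2 and 19.5. The run of Cxcl5, Cxcl3, Cxcl1 and Cxcl2 held 3.85 to 5.41, and the pair Cxcl9 and Cxcl10 3.14 to 3.28.

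Spread between cells was measured as the variance of a gene's counts over cells divided by the variance that counting noise and each cell's total allow, taken as a median over the 22 sections. A value of 1 is counting noise alone. Across the panel the median was 1.42, and the 5th and 95th percentiles were 1.24 and 1.8. Cxcl12 had 2.33, rank 26 of the panel, and up to 26 transcripts in 1 cell. Ccl19 had 2.07, rank 39. Both lay above the 95th percentile of the panel. The measure was not adjusted for a gene's rate, so a bright gene can rank high partly through its rate. Ccl21a/b/d had 1.66, Ccl4 1.61 and Ccl11 1.48. Ccl11 was thus nearly as bright as Cxcl12 over all sections but its rank for spread between cells was 290. Cxcr4 had 1.37, rank 667.

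**Figure D2:**
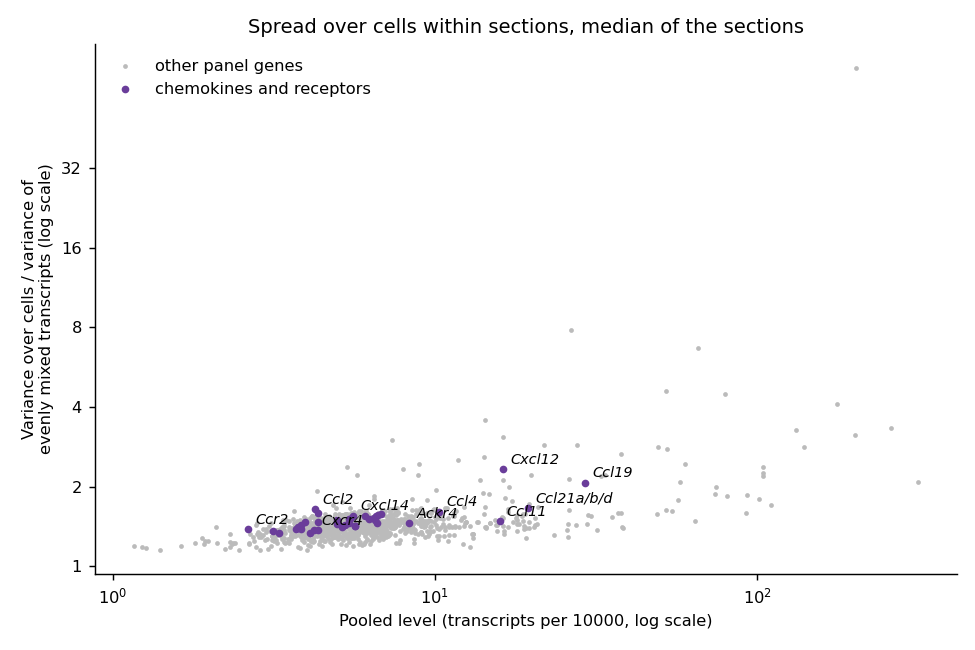
Spread of counts between cells within a section (variance over the variance of evenly mixed transcripts, log axis, median over 22 sections) against the pooled rate per 10000 transcripts on a log axis, with 1 point per panel gene and the chemokine and chemokine receptor genes in purple. Cxcl12 at 2.33 and Ccl19 at 2.07 lay above the panel's 95th percentile of 1.8, and Ccl11 at 1.48 lay near the panel median of 1.42.

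Cxcl12 also differed between the imaged fields of a section. In the 18 sections with several fields, its rate in the highest field was 1.16 to 4.19 times that in the lowest, with a median of 1.67. This was the largest median among the 39 genes. The ratio was not tested, and counting noise alone gives a value above 1.

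To see which cells held the transcripts, cells were gated by marker genes, with no chemokine gene among the markers. A cell entered a gate with at least 3 transcripts from at least 2 markers and at least 3 times the marker share of its section. The 1308 kept cells that passed several gates were put in no gate, and 27669 passed none. Both kinds were counted among the other cells of every gate. The gates were endothelial-like (Cdh5, Pecam1 and others), erythroid-like (hemoglobins and Epor), macrophage-like, smooth-muscle-like (Acta2, Tagln and others), epithelial-like, mesenchyme-like, neural-like and neural-crest-like. Each held 1.94% to 4.63% of the kept cells of an embryo, 359 to 783 cells. All markers were higher in their gate than in other cells, by 1.15 times (Twist1 in the knockout mesenchyme-like gate) to 29.6 times (Hba-a1/2, alpha globin, in the knockout erythroid-like gate). Since the gates were defined by these markers, this describes the gates and is no independent check of them. The small difference of Twist1 limits the mesenchyme-like gate. There Pdgfra was 1.90 times (knockout) and 2.09 times (wildtype) as high as in other cells, and Twist2 1.62 and 2.12 times. Col1a1 was 12.2 and 10.7 times as high. Other cells held Twist1 at 57.6 and 36.9 per 10000. The gate thus took collagen-rich cells, and its calls do not contrast mesenchyme with other tissue. Counts were summed per section inside and outside a gate and compared by edgeR's quasi-likelihood test with section as a block, adjusted over all genes. Transcripts of a neighbouring cell can be assigned to a gated cell, and their part in these values was not tested.

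Over the 8 gates, 27 of 312 gene and gate pairs were called (8.65%), against 14.4% of the pairs of the whole panel. They came from 19 genes, of which 6 were called in a gate other than the erythroid-like one. These were Cxcl12, Cxcl14, Cx3cr1, Cx3cl1, Ackr3 and Ccl28. The difference between gate and other cells did not pass the test as differing between the embryos in any of the 312 pairs (edgeR's test of the difference; 16 had an unadjusted p under 0.05), and over the whole panel 0 to 6 genes per gate were called (0% to 0.601%, with 0.301% in the mesenchyme-like and 0.1% in the neural-like gate).

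**Figure D3:**
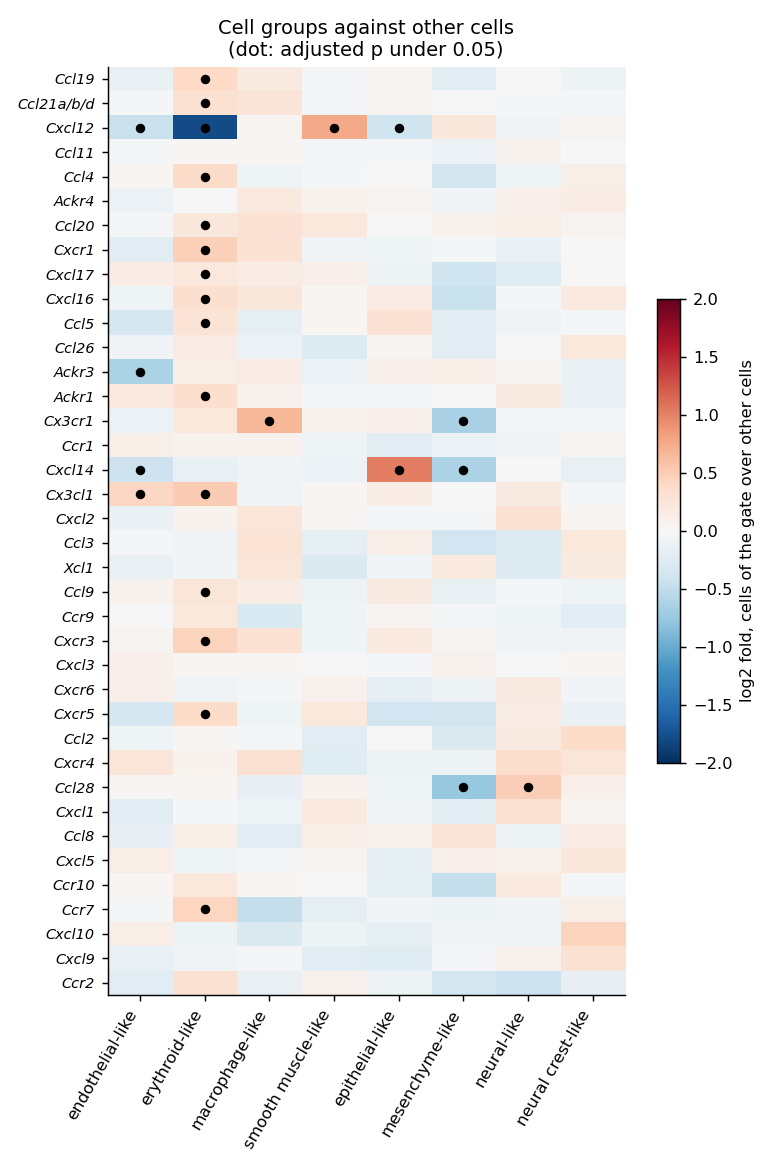
Log2 difference between the cells of each marker gate and all other cells, mean of both embryos, for the chemokine and chemokine receptor genes reported here, in order of rate, with a dot where edgeR's adjusted p was under 0.05. Cxcl12 was higher in smooth-muscle-like cells (0.76) and lower in erythroid-like cells (-1.79), and Cxcl14 was higher in epithelial-like cells (1.02).

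Cxcl12 and Cxcl14 differed most between gates among the 39 genes. In smooth-muscle-like cells, its rate in the 13 knockout sections was 18.6 at the lowest, 33.1 at the median and 71.1 per 10000 at the highest, against 20.6 ± 9.39 in other cells (SD, n = 13). In the 9 wildtype sections it was 5.60, 19.7 and 29.0, against 13.1 ± 3.78 (SD, n = 9). The gate was above the other cells of the same section in 12 of 13 knockout and 8 of 9 wildtype sections. This was a log2 difference of 0.76 (SE 0.09, edgeR adjusted p = 1.14e-11), and 9.42% of the panel was called in this gate. Smooth muscle around vessels is mural tissue, and CXCL12 is widely made by stromal and perivascular cells in the adult.

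In erythroid-like cells, where 49.7% of the panel was called, Cxcl12 was lower than in other cells in 22 of 22 sections. It measured 1.89, 3.76 and 9.61 per 10000 (lowest, median and highest) in knockout sections and 2.14, 4.33 and 6.72 in wildtype sections. The log2 difference was -1.79 (SE 0.12, edgeR adjusted p = 1.23e-17). The pooled rate was 2.37 times the background of these cells in knockout (95% exact Poisson interval 2.00 to 2.79) and 1.61 times in wildtype cells (1.36 to 1.89), which is under the 2-fold of the background rule. The Poisson intervals cover counting error only. Endothelial-like cells held less Cxcl12 (log2 difference -0.44, edgeR adjusted p = 5.39e-06), at a median of 11.8 per 10000 in knockout and 8.35 in wildtype sections. Epithelial-like cells were lower too (-0.40, edgeR adjusted p = 0.00627), but this call was lost under a stricter gate (-0.61), a looser gate (-0.24) and within either of the 2 sets of sections that the deposited tables number 1 and 2. The smooth-muscle-like, erythroid-like and endothelial-like calls were kept under the alternatives run. Over the 8 gates, the highest pooled Cxcl12 rate was 7.40 times the lowest in knockout and 3.99 times in wildtype cells, ranks 13 and 26 of 951 genes that were no gate marker.

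**Figure D4:**
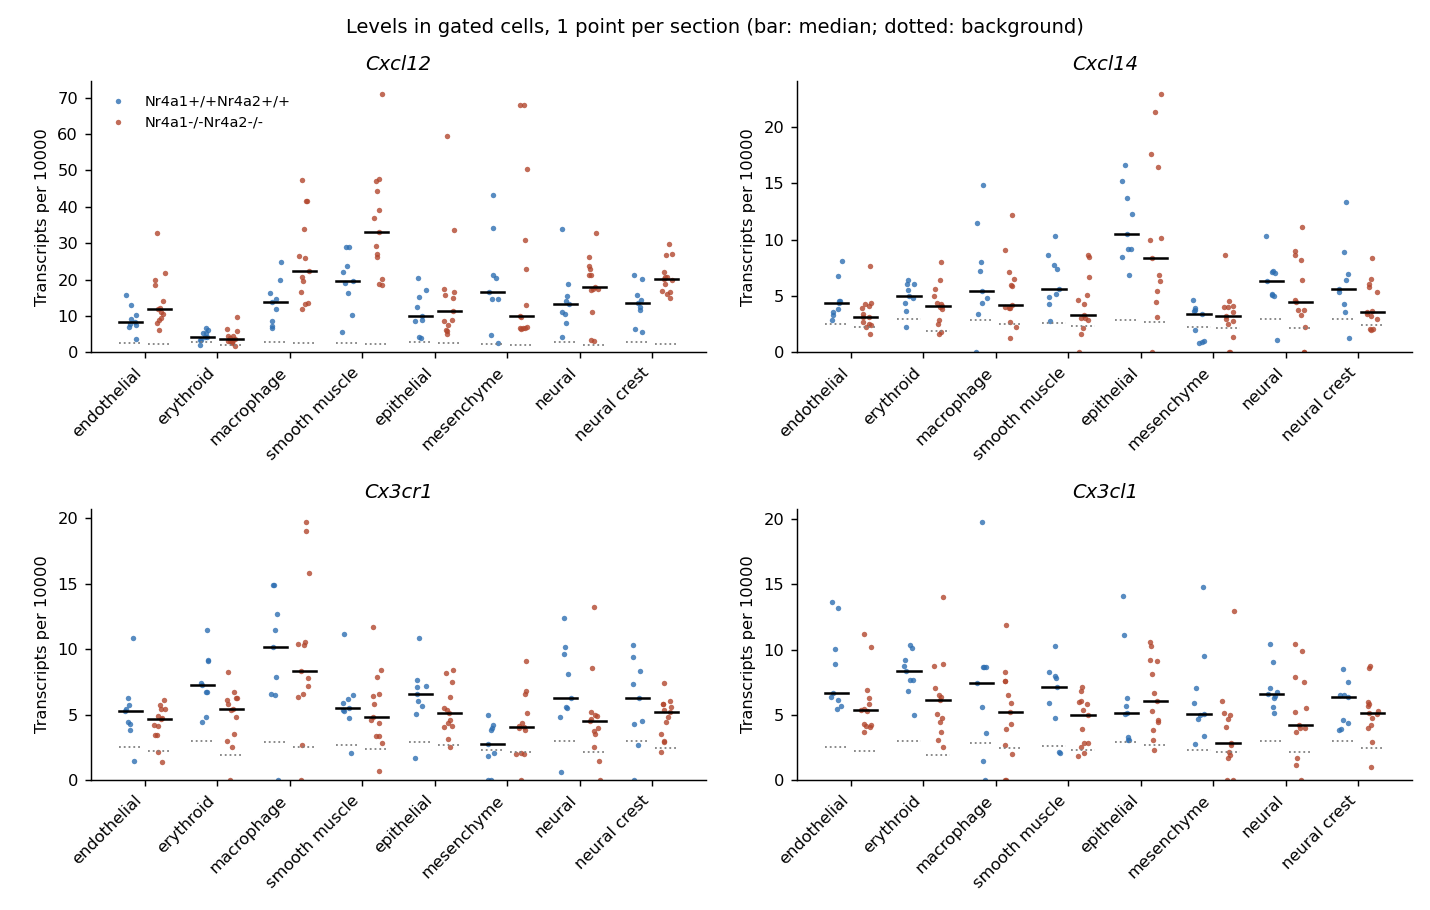
Rate per 10000 transcripts of Cxcl12, Cxcl14, Cx3cr1 and Cx3cl1 in the cells of each marker gate, with 1 point per section, a bar at the median of each genotype and a dotted line at the background of those cells. For Cxcl12, the erythroid-like gate lay below 10 per 10000 in every section and the smooth-muscle-like gate reached 71.1 in knockout sections.

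Cxcl14, a chemokine of epithelia, did not pass the background rule over all cells and was called higher in epithelial-like cells. There it measured 0, 8.35 and 22.9 per 10000 (lowest, median and highest) in knockout sections and 6.88, 10.5 and 16.6 in wildtype sections. Other cells averaged 4.74 ± 1.12 (SD, n = 13) and 6.05 ± 0.802 (SD, n = 9). The gate was higher in 11 of 13 knockout and 9 of 9 wildtype sections, by 1.02 on the log2 scale (SE 0.13, edgeR adjusted p = 1.35e-08). Of the panel, 5.71% was called in this gate. The pooled rate was 3.93 times background in knockout and 3.99 times in wildtype cells. Cxcl14 was lower in endothelial-like cells (-0.42, edgeR adjusted p = 0.0128) and in mesenchyme-like cells (-0.63, edgeR adjusted p = 0.0225). Both of these calls were lost under the stricter gate and within set 1, and the mesenchyme-like one also under the looser gate (-0.13) and within set 2, whereas the epithelial-like one was kept under the alternatives run.

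Cx3cr1, a receptor that macrophages carry, was called higher in macrophage-like cells. It measured 0, 8.30 and 19.7 per 10000 in knockout sections and 0, 10.2 and 14.9 in wildtype sections. Other cells averaged 5.01 ± 0.607 (SD, n = 13) and 6.32 ± 0.525 (SD, n = 9). The gate was higher in 11 of 13 and 8 of 9 sections, by 0.66 on the log2 scale (SE 0.16, edgeR adjusted p = 0.000682). In this gate 8.52% of the panel was called, 2.1% of it higher. The pooled rate was 3.85 times background in knockout and 3.58 times in wildtype macrophage-like cells. In this fit no other member was called in the gate. DESeq2 also called Ccl21a/b/d, edgeR with library size alone called Ccl19 and Ccl21a/b/d, and the looser gate called Cxcl16. The Cx3cr1 difference was 0.35 with the looser gate and 0.59, not called, within set 2, and under the stricter gate it could not be tested. In mesenchyme-like cells Cx3cr1 was lower (-0.64, edgeR adjusted p = 0.0186), a call lost under a stricter (-0.96) and a looser gate (-0.16) and within either set.

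Its ligand Cx3cl1, fractalkine, a membrane-bound chemokine of endothelium and neurons, was higher in endothelial-like cells by 0.41 on the log2 scale (SE 0.12, edgeR adjusted p = 0.0036). The rate was 3.68, 5.37 and 11.2 per 10000 in knockout and 5.46, 6.70 and 13.7 in wildtype sections. The gate was above other cells in 8 of 13 and 6 of 9 sections, so sections overlapped widely, and the call was lost under the stricter gate (0.21) and within set 2 (0.33). Ackr3 was lower in endothelial-like cells by 0.63 on the log2 scale (log2 difference -0.63, SE 0.13, edgeR adjusted p = 4.74e-05). In wildtype sections Ackr3 measured 0.759, 3.36 and 7.64 per 10000, below other cells in 9 of 9 sections. In knockout sections it measured 2.30, 4.19 and 8.89 and was above other cells in 2 of 13. The Ackr3 call was lost under the stricter (-0.41) and the looser gate (-0.27) and within set 1 (-0.52). In the endothelial-like gate, 20.3% of the panel was called. The members called in it were Cxcl12, Cxcl14 and Ackr3, lower, and Cx3cl1, higher.

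Ccl28, a ligand of CCR10 and CCR3 made by mucosal epithelium, was the member called in neural-like cells, where 5.51% of the panel was called. It measured 3.92, 7.81 and 9.39 per 10000 in wildtype and 0, 3.33 and 9.39 in knockout sections. The gate was above other cells in 8 of 9 and 6 of 13 sections, with a log2 difference of 0.49 (edgeR adjusted p = 0.0435), which was lost without knockout section 13 (0.47), with library size alone (0.46), under the stricter gate (0.71) and within either set (0.50 in each). In mesenchyme-like cells Ccl28 was lower (-0.76, edgeR adjusted p = 0.0133), above other cells in 0 of 13 knockout and 1 of 9 wildtype sections, and this call was lost under the stricter (-0.66) and the looser gate (-0.13) and within either set. The mesenchyme-like gate called 10.2% of the panel. Cxcr4 was highest in neural-like cells of the knockout embryo, where its pooled rate was 6.0 per 10000. In the wildtype embryo it was highest in macrophage-like cells, at 5.60, and it was not called in any gate. Of the 39 members, 0 were called by edgeR in neural-crest-like cells, where 5.51% of the panel was called and 2 members had an unadjusted p under 0.05. By DESeq2, Cxcl10 was called there.

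Erythroid-like cells gave 14 further members that were higher than in other cells. They were the ligands Ccl4, Ccl5, Ccl9, Ccl19, Ccl20, Ccl21a/b/d, Cx3cl1, Cxcl16 and Cxcl17 and the receptors Ackr1, Ccr7, Cxcr1, Cxcr3 and Cxcr5. Their log2 differences were small, from 0.21 for Cxcl17 to 0.51 for Cx3cl1. In this gate 28.4% of the panel was called higher, so the 14 of 39 are read against that share. Hemoglobin genes are markers of this gate, so their high share in it follows from the gating. Hba-a1/2 took 2493 of every 10000 transcripts in knockout and 1091 in wildtype erythroid-like cells, against 84.2 and 112 in other cells, and its part in the 14 calls was not tested. Scaled to library size alone, 14 of the 14 differences were still above 0 and 7 were called. Of the 14, 11 were called without knockout section 13, 8 under the stricter gate, 10 within set 1 and 2 within set 2. Ccl19 as an example measured 12.6, 29.3 and 49.5 per 10000 in knockout and 32.5, 42.5 and 61.8 in wildtype erythroid-like cells, above other cells in 10 of 13 and 9 of 9 sections.

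Genes below the background rule over all cells were then looked at within the gates. With counts pooled over the sections of an embryo, the lower 95% Poisson bound of the ratio to background reached 2 for 0 to 7 of the 26, depending on gate and embryo, which is 0% to 26.9%. Of all panel genes below the rule, gate markers left out, 2.84% to 23.6% did so. The 7 were in knockout erythroid-like cells, where the panel's share was the highest, and included Cx3cl1 and Cx3cr1. In macrophage-like cells 3 of the 26 did so in knockout (11.5%) and 5 in wildtype (19.2%), against 9.18% and 9.37% of the panel genes. Ccl3 and Cx3cr1 did so in both embryos, Xcl1 in knockout, and Ccl26, Cxcl2 and Cxcr3 in wildtype cells. Cx3cr1 also did so in erythroid-like cells of both embryos and in knockout smooth-muscle-like cells, and Ccl3 in wildtype neural-crest-like cells.

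Ccl11 followed none of the gates. Its highest pooled gate rate was 1.41 times the lowest in knockout and 1.21 times in wildtype cells, ranks 830 and 945 of the 951 genes. It varied between sections instead. After scaling by TMM, edgeR's normalization for library composition, its rate was 9.52, 13.2 and 53 per 10000 (lowest, median and highest) in knockout sections and 7.62, 11.9 and 31.0 in wildtype sections. The highest values were those of knockout section 5 and wildtype section 18. Section 5 was also the highest knockout section for Ccl4, at 16.6, and Ackr4, at 14.1 per 10000.

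The comparison of the 2 embryos over all cells called 3 of the 39 genes (7.69%), against 12.5% of the panel. Of the panel 9.82% was called higher and 2.71% lower in knockout sections. Cxcl12 was higher, and Ccl26 and Cxcr3 were lower. Without regard to the test, 31 of the 39 log2 differences were below 0 and 8 above, with a median of -0.05, against -0.03 over all genes. This scale is relative. With library size alone in place of TMM, the median over all genes was -0.30, and 34 of the 39 genes were called, against 77.9% of the panel. The share of the panel's calls that were higher was 78.4% with TMM and 7.46% with library size alone.

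Cxcl12 measured, after TMM scaling, 12.8 at the lowest, 20.2 at the median and 51.9 per 10000 at the highest in knockout sections (mean 22.9 ± 10.4, SD, n = 13). In wildtype sections it measured 7.42, 11.5 and 18.3 (11.9 ± 3.43, SD, n = 9). In 9 of 13 knockout sections it was above the highest wildtype section, and the groups overlapped in the rest. Sections 12 and 13 were the highest, at 34.2 and 51.9. The log2 difference was 0.94 (SE 0.21, edgeR adjusted p = 0.00232), a 1.92-fold higher rate. It was called with each of the 22 sections left out in turn, and without section 13 it was 0.78 (adjusted p = 0.00275).

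The deposited tables carry a set number, 1 or 2, which may mark the slide, and each set was also fitted alone. Wildtype Cxcl12 ran from 11.1 to 18.3 in the 4 sections of set 1 and from 7.42 to 11.6 per 10000 in the 5 of set 2. Knockout Cxcl12 ran from 13.7 to 27.3 in the 7 of set 1 and from 12.8 to 51.9 in the 6 of set 2. The log2 difference was therefore 0.47 within set 1 (edgeR adjusted p = 0.106) and 1.41 within set 2 (adjusted p = 0.00802). Sets of the same number in the 2 embryos lie on different slides. With the set number as a block, an alternative chosen after seeing the data, the difference was 0.94 (adjusted p = 0.00341).

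**Figure D5:**
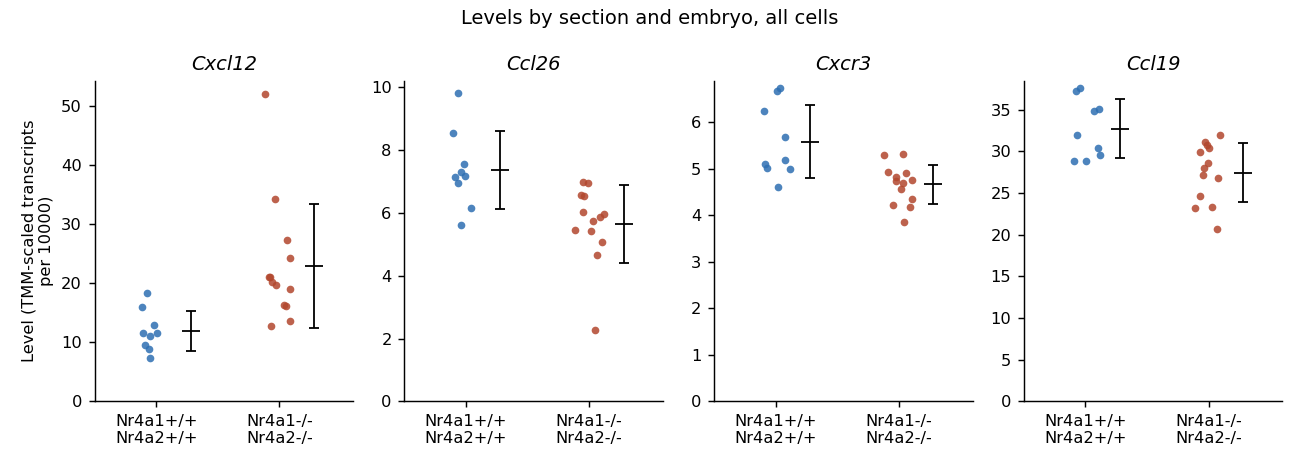
TMM-scaled rate per 10000 transcripts of Cxcl12, Ccl26, Cxcr3 and Ccl19 in each of the 13 knockout and 9 wildtype sections, all kept cells, with the mean and SD of each group. Cxcl12 was higher in knockout sections (mean 22.9 against 11.9), with section 13 at 51.9, and Ccl26 and Cxcr3 were lower, with overlapping groups.

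Ccl26 was lower in knockout sections by 0.36 on the log2 scale (log2 difference -0.36, SE 0.11, edgeR adjusted p = 0.0358). Its rate was 2.27, 5.85 and 6.98 per 10000 in knockout and 5.60, 7.16 and 9.81 in wildtype sections, so the groups overlapped. Section 13 was the lowest, and without it the difference was -0.30 (adjusted p = 0.00810). The call was lost when knockout section 1, 5 or 8 or wildtype section 14, 15, 16 or 22 was left out, with adjusted p up to 0.0868. Within set 1 it was -0.48 (adjusted p = 0.0162) and within set 2 -0.25 (adjusted p = 0.398).

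Cxcr3, the receptor of CXCL9 and CXCL10, was lower by 0.26 (log2 difference -0.26, SE 0.07, edgeR adjusted p = 0.0144). It measured 3.86, 4.74 and 5.32 per 10000 in knockout and 4.60, 5.18 and 6.74 in wildtype sections. The difference is under 1.5-fold in a gene that reached 2 times background in 9 of 22 sections. It was called with each section left out in turn, with adjusted p up to 0.0408, and was -0.32 (adjusted p = 0.0935) within set 1 and -0.19 (adjusted p = 0.27) within set 2.

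Cxcr1, Ccl19 and Ccl20 were close to the threshold. Cxcr1 differed by -0.22 (edgeR adjusted p = 0.0586) and Ccl20 by -0.16 (adjusted p = 0.0872). Cxcr1 measured 5.15, 6.16 and 7.72 per 10000 in knockout and 6.01, 7.13 and 8.21 in wildtype sections, and was called by DESeq2 and by edgeR without knockout section 5, 7 or 13 or wildtype section 22. Ccl19 measured 20.7, 28 and 31.9 per 10000 in knockout and 28.8, 32 and 37.6 in wildtype sections, and 8 of 13 knockout sections were below the lowest wildtype section. Its log2 difference was -0.26 (edgeR adjusted p = 0.0722), and Ccl19 was called by DESeq2 and by edgeR without section 13. Ccl11 differed by 0.38 with a larger error (SE 0.30, edgeR adjusted p = 0.432). For Cxcr4, the difference was 0.10 (SE 0.09, edgeR adjusted p = 0.466), and for Ackr3 -0.03 (SE 0.08, edgeR adjusted p = 0.803).

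Within the gates, 5 gene and gate pairs were called between the embryos. In 3 of them Cxcl12 was higher in knockout smooth-muscle-like (0.92, SE 0.24, edgeR adjusted p = 0.0184), macrophage-like (0.84, SE 0.25, adjusted p = 0.021) and neural-crest-like cells (0.70, SE 0.18, adjusted p = 0.0044). Of the genes tested, 4.7%, 10.5% and 9.22% were called in these gates. Low counts kept many genes out of these fits, and the members tested were 9 in the endothelial-like, 33 in the erythroid-like, 4 in the macrophage-like, 10 in the smooth-muscle-like, 15 in the epithelial-like, 4 in the mesenchyme-like, 7 in the neural-like and 14 in the neural-crest-like gate. Over all cells, 39 of 39 were tested. The rates in macrophage-like cells were 11.9, 22.3 and 47.4 per 10000 in knockout and 6.83, 13.8 and 24.8 in wildtype sections. In neural-crest-like cells they were 14.9, 20.1 and 29.9 and 5.71, 13.5 and 21.2. Knockout and wildtype sections overlapped in these gates. Under the stricter gate the differences in smooth-muscle-like (0.75) and neural-crest-like cells (0.60) were no longer called. Without knockout section 13, Cxcl12 was still called in smooth-muscle-like (0.76, edgeR adjusted p = 0.0264), macrophage-like (0.78, adjusted p = 0.0262) and neural-crest-like cells (0.69, adjusted p = 0.00396).

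Cxcl12 was not called between embryos in endothelial-like (0.53, edgeR adjusted p = 0.135), erythroid-like (0.36, adjusted p = 0.616), epithelial-like (0.46, adjusted p = 0.61), neural-like (0.45, adjusted p = 0.304) or mesenchyme-like cells (0.10, adjusted p = 0.963). Gates that were called were not shown to differ from those that were not. The test of whether the contrast of a gate with other cells differed between embryos gave values for Cxcl12 from -0.76 to 0.21 over the 8 gates, with a lowest adjusted p of 0.534. In set 1 alone the Cxcl12 difference was 0.47 in smooth-muscle-like and 0.30 in neural-crest-like cells, and in set 2 alone 1.55 and 1.12. In macrophage-like cells it was 0.78 and 0.90. Set 1 alone gave none of the 5 calls, and instead Ccl11 was higher in knockout erythroid-like (1.85, adjusted p = 0.00939) and neural-crest-like cells (1.27, adjusted p = 0.00659). Over all sections these Ccl11 differences were 0.49 (adjusted p = 0.708) and 0.25 (adjusted p = 0.742), and knockout section 5, the highest in Ccl11, is in set 1. Other calls absent from the fit over all sections were Cxcr1 in neural-crest-like cells in set 2 (-1.18, edgeR adjusted p = 0.00818), Ccl19 in neural-like cells with the stricter gate (-1.47, edgeR adjusted p = 0.0232) and Ccl3 in neural-like cells with no filter on low counts (-1.05, edgeR adjusted p = 0.0457). Library size alone added 15 more, 10 of them in erythroid-like cells.

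The other 2 pairs were lower in knockout sections. In endothelial-like cells Ccl19 measured 12.5, 21.5 and 28.4 per 10000 in knockout and 22.8, 33.0 and 44.6 in wildtype sections. The log2 difference was -0.54 (SE 0.15, edgeR adjusted p = 0.014), with 7.11% of tested genes called, and it was -0.53 within each set, where it was not called. The call was also lost with no filter on low counts (-0.47, adjusted p = 0.103). In neural-like cells Ccl20 measured 0, 6.09 and 9.95 per 10000 in knockout and 4.52, 10.1 and 17.3 in wildtype sections. It was lower by a log2 difference of -0.90 (SE 0.27, edgeR adjusted p = 0.0182), with 16.8% of tested genes called. The call was lost with no filter on low counts (-0.78, adjusted p = 0.1) and within set 2 (-0.81, adjusted p = 0.121), and the gene had too few counts to be tested within set 1 or under the stricter gate. The markers of the neural-like gate also differed between the embryos, with Sox2 at 82.8 per 10000 in knockout and 29.8 in wildtype cells, Hes5 at 39.5 and 17.2 and Ntrk2 at 24.2 and 41.4. Their part in the Ccl20 difference was not tested. In erythroid-like cells 0 of 33 tested members were called by edgeR and by DESeq2, and 2 had an unadjusted p under 0.05. In epithelial-like cells 0 of 15 were called by edgeR, 3 had an unadjusted p under 0.05 and DESeq2 called Ccl19. In mesenchyme-like cells 0 of 4 were called by either tool, and 0 had an unadjusted p under 0.05. In those 3 gates 3.36%, 1.91% and 0% of tested genes were called.

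Of 11 related genes outside the naming rule, 2 were called between the embryos over all cells, against 12.5% of the panel. Mif, a cytokine that binds CD74 and also chemokine receptors, was higher in knockout sections (0.62, edgeR adjusted p = 0.0118), by 0.63 within set 1 and 0.65 within set 2, neither of them called. Ccrl2, a chemokine receptor-like protein that binds chemerin, was lower (-0.27, edgeR adjusted p = 0.0168). Mif was also higher in knockout neural-like (0.77, adjusted p = 0.0306, but -0.13 with the stricter gate) and neural-crest-like cells (0.74, adjusted p = 0.000495). In the contrast with other cells, 3 of 11 were called in endothelial-like cells, against 20.3% of the panel. The 3 called were Gpr182, an atypical chemokine receptor of endothelium (0.50), and Kitl, the ligand of KIT (0.36), which were higher, and Mif (-0.28), which was lower. In erythroid-like cells 7 of 11 were called, against 49.7% of the panel. Of these, Ccrl2, Cd74, Cmklr1 and Pf4 were higher and Hif1a, Kitl and Mif were lower. Pf4, a platelet and macrophage chemokine, was lower in macrophage-like cells (-0.85), Mif was lower in smooth-muscle-like cells (-0.35) and Ccrl2 in mesenchyme-like cells (-0.57). In these gates 8.52%, 9.42% and 10.2% of the panel was called.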

How the data were processed

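CosMx in situ imaging gave 1 table of transcripts per cell and gene for each of 22 sections. The authors deposited raw counts per cell, with segmentation and transcript assignment by the AtoMx software, and no normalization. Values are 998 genes by section, and 0 columns of sample values were left unused. A cell was kept with 10 or more transcripts and 10 or more genes. Groups follow each section's genotype label. The genes studied and the lists of markers and related genes were chosen with earlier results of these data known.

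Counts were summed per section, or per section and marker gate, and tested with edgeR 4.0.16 in R 4.3.3 (TMM, filterByExpr, robust quasi-likelihood fit), adjusted by Benjamini-Hochberg over all genes tested, at 0.05. Sections with under 10 cells of a gate were left out, and gates needed 4 sections per genotype. Rates are counts per 10000 transcripts. Named were all genes above background, all genes called in a comparison, and the 3 brightest and 3 dimmest of the rest. Some others were named as genome neighbours, near a cut, as receptors of named ligands, or for their spread between cells or rate within a gate. Related genes were named where called. A receptor gene is in the counts but is not reported here by name. DESeq2 1.42.0, library size without TMM, other filters, gates, backgrounds and left-out sections were the alternatives. Depth per section was 169027 to 887896 transcripts, and intervals are exact Poisson at 95%. On simulated counts the all-cell fit of 998 genes recovered 100% of 1.5-fold and 2-fold changes, with 3.85% of its calls among unchanged genes. The genotype fit in endothelial-like cells, of 420 genes, recovered 100% of 2-fold and 76.2% of 1.5-fold changes, with 7.29% of its calls among unchanged genes. How often such changes are found in the measured sections was not tested. There the spread between sections differed by gene, with SE 0.30 for Ccl11 and 0.07 for Cxcr3 in the all-cell fit. Sections shared 0 cell names, and 0 pairs were identical.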

Additional observations from a re-analysis of the deposited data

Results flagged for a closer look

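In 53 sets of wildtype values of named genes, 4 held a section far from the others by Dixon's test at the 95% level, which chance gives in about 1 of 20 sets. Ccl11 over all cells was 30.95 per 10000 (TMM scale) in wildtype section 18, with the next at 18.1. Cxcl9 over all cells was lowest in wildtype section 20, at 2.68, with the next at 3.07. Ccl9 in erythroid-like cells was 11.5 per 10000 in wildtype section 17, with the next at 7.70. Ccl28 in neural-like cells was lowest in wildtype section 19, at 3.92, with the next at 6.64. The knockout group, with 13 sections, was not put to this test. Its Ccl11 value in section 5 was 53 per 10000, with the next at 29.8.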

How the results depend on the processing

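No paired analysis was possible because the 2 embryos share no section numbers in the labels, and their sets lie on different slides. The count of 13 chemokine genes above background (46.9% of the panel) became 27 at a ratio of 1.5 (panel 76.2%), 5 at a ratio of 3 (20.7%) and 7 with the dimmest 10% as background (33.4%). The 3 calls between embryos over all cells (12.5% of the panel) became 5 with DESeq2 (panel 16.3%), 5 with the set number as a block (14.5%, Ccl19 and Cxcr1 added), 34 with library size alone (77.9%, or 777 genes against 125), and 1 in each of set 1 (5.51%, 55 genes) and set 2 (9.82%), and ranged from 2 to 5 with a section left out, the 5 being without knockout section 13 (16.1%). Within gates, the 5 calls (panel 6.17%) became 20 with library size alone (17.8%, 5 of them shared), 2 with the stricter gate (4.07%, 1 shared), under which the macrophage-like gate could not be tested, 2 in set 1 (1.36%, 0 shared) and 3 in set 2 (4.35%, 2 shared). Of the 27 calls of a gate against other cells (panel 14.4%), set 1 alone gave 16 (7.69%) and set 2 alone 8 (9.39%). Calls of a gate contrast differing between embryos were 0 under each alternative run. The difference of Mif in neural-like cells turned to -0.13 with the stricter gate, and that of Ccl9 in erythroid-like cells to -0.024 in set 2. The causes were not tested. Section totals and the few cells per gate limit the precision for dim receptors.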
